A study of Mus musculus with 12 samples.

Results

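The genes described here are 39 genes of glycolysis and of the response to low oxygen, out of 21960 genes listed for each tumor. They are a named list of pathway genes, found in the data by gene symbol. All 39 were listed, and all 39 reached 1 TPM (a level scaled for gene length and for the sum of all transcripts) in at least 3 tumors, so that no member was lost to the filter on low values. RNA sequencing was done on 12 mammary tumors of C57BL/6 mice that carry the polyoma middle T oncogene (PyMT). In this model the MMTV promoter drives the oncogene in mammary epithelium, and the tumors arise without an implant. Each of 4 groups held 3 tumors.

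The IgG1 group received a control antibody labelled anti-mouse IgG1, and the anti-PD-1 group received the antibody 4H2, which blocks the inhibitory receptor PD-1 on T cells. In these groups treatment began when the first tumor measured 0.6 cm, with 20 mg/kg of antibody at first and 10 mg/kg at later doses. The DOX/IgG1 and DOX/anti-PD-1 groups received doxorubicin, an anthracycline that damages DNA, at 5 mg/kg once a week, and 10 mg/kg of the same antibodies a day after each dose. Their treatment began at a tumor diameter of 1 cm. Doxorubicin, starting size and antibody schedule therefore cannot be told apart in these data. Age is not given. The labels give a treatment of 5 weeks for all tumors, while the protocol for the groups without doxorubicin lists 4 antibody days that end earlier. The labels do not say whether the 3 tumors of a group came from 3 mice, so p-values measure the spread between these tumors. Sequencing depth cannot be read from TPM. The listed genes summed to between 609418 and 725506 TPM per tumor, with the lowest sum in IgG1 replicate 1. Between 6534 and 8104 of them were listed at 0, the most in DOX/IgG1 replicate 1.

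Glycolysis splits glucose to pyruvate in the cytosol, and many tumors send much of that pyruvate on to lactate even when oxygen is present. When oxygen is short, the prolyl hydroxylases that mark HIF-1 alpha for destruction slow down, and the stabilized factor switches on glucose transporters, most glycolytic enzymes and genes for vessel growth, acid balance and matrix. Mammary tumors that outgrow their vessels hold zones of low oxygen, and bulk RNA averages over those zones and over tumor, stromal, vessel and blood cells. Fewer cells of a type and less RNA per cell cannot be told apart in such samples.

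The labelled tissue was checked first. All 5 epithelial markers (Epcam, Krt8, Krt18, Krt19 and Cdh1) were above 0 in every tumor and summed to between 1914 and 3619 TPM. Epcam was the most abundant of them.

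Replicate 1 of the DOX/IgG1 group stood apart for these genes. It held the highest level of 18 of the 39 members, or 46.2%, while 14.9% of all 14735 genes tested over the 12 tumors had their highest level there. Its median member lay 0.73 above the mean of the 12 tumors on the log2 scale, against 0.02 for all genes tested. The next tumor was DOX/anti-PD-1 replicate 2, with a median of 0.36 beside 0.15 for all genes. It held the highest level of 8 members, or 20.5%, against 9.75% of all genes. At the other end was DOX/anti-PD-1 replicate 3, with a median of -0.40 beside 0.02 for all genes. It held the lowest level of 11 members, or 28.2%, against 10.6% of all genes.

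**Figure D1:**
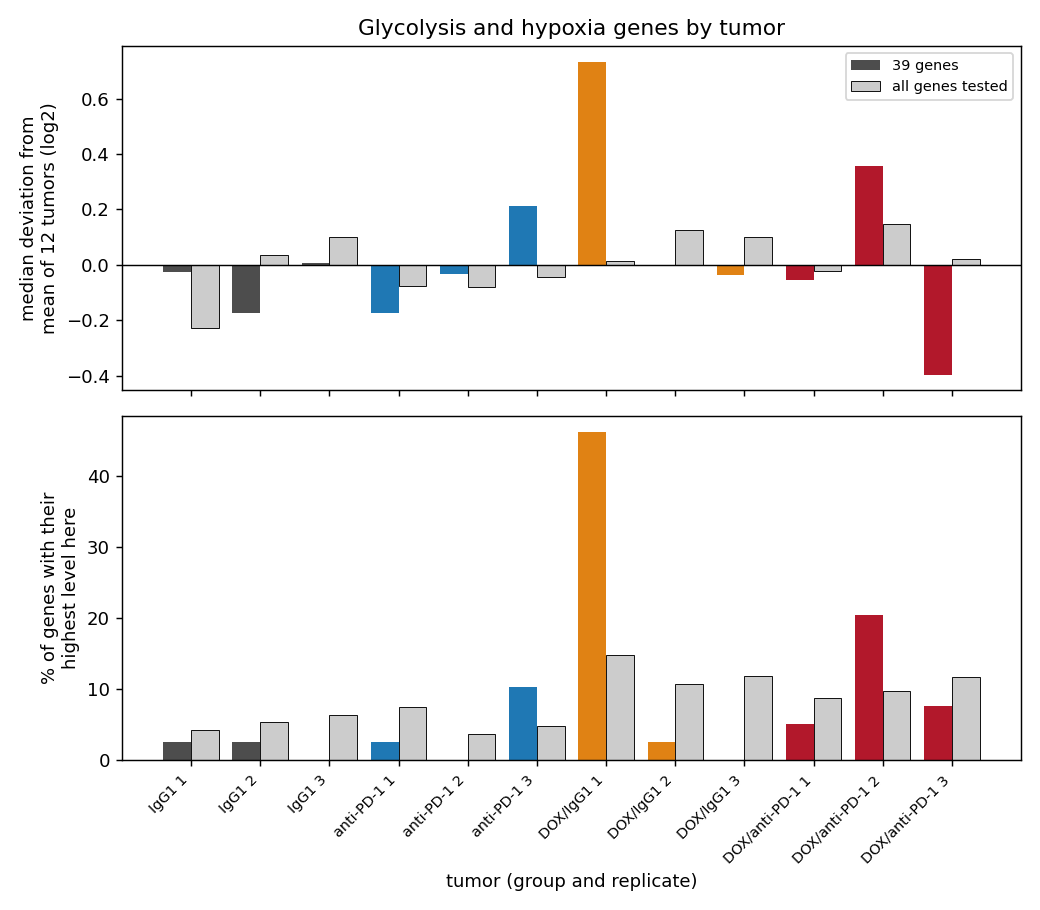
Upper plot, for each tumor, the median over the 39 genes (bars colored by group) and over all genes tested (gray bars) of the deviation of log2(TPM + 1) from the mean of the 12 tumors; lower plot, the percentage of genes with their highest level in that tumor. DOX/IgG1 replicate 1 reaches 0.73 and 46.2%, and the other 2 tumors of its group lie near 0 in the upper plot.

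Some markers of other cell types also stood apart in DOX/IgG1 replicate 1. All 5 red blood cell markers were highest in that tumor, and their summed level was 260.0, 62.9 and 87.8 TPM in the IgG1 tumors, 65.2, 44.6 and 78.5 in the anti-PD-1 tumors, 2346, 189 and 41.9 in the DOX/IgG1 tumors and 131, 297 and 68 in the DOX/anti-PD-1 tumors. Hbb-bs, a beta chain of hemoglobin, was the most abundant of them, and none of the 5 was at 0 in that tumor. Macrophage markers summed to 275, 176 and 236 TPM in the IgG1 tumors, 156, 163 and 145 in the anti-PD-1 tumors, 466, 263 and 196 in the DOX/IgG1 tumors and 146, 252 and 205 in the DOX/anti-PD-1 tumors, with Cd14 and Cd68 highest in the same tumor and Cd14, at 357 TPM there, the most abundant. Of the other 3 markers, Csf1r was at its lowest in that tumor and Adgre1 at its lowest but 1. Its fibroblast sum of 353 TPM and its epithelial sum of 1914 TPM were the lowest of the 12 tumors. More genes were listed at 0 in this tumor, 8104, than in any other, where there were 6534 to 7730. The column of this tumor alone carries the added word "test" in its header, with no meaning given. The part of blood, macrophages and genes listed at 0 in the results was not tested.

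**Figure D2:**
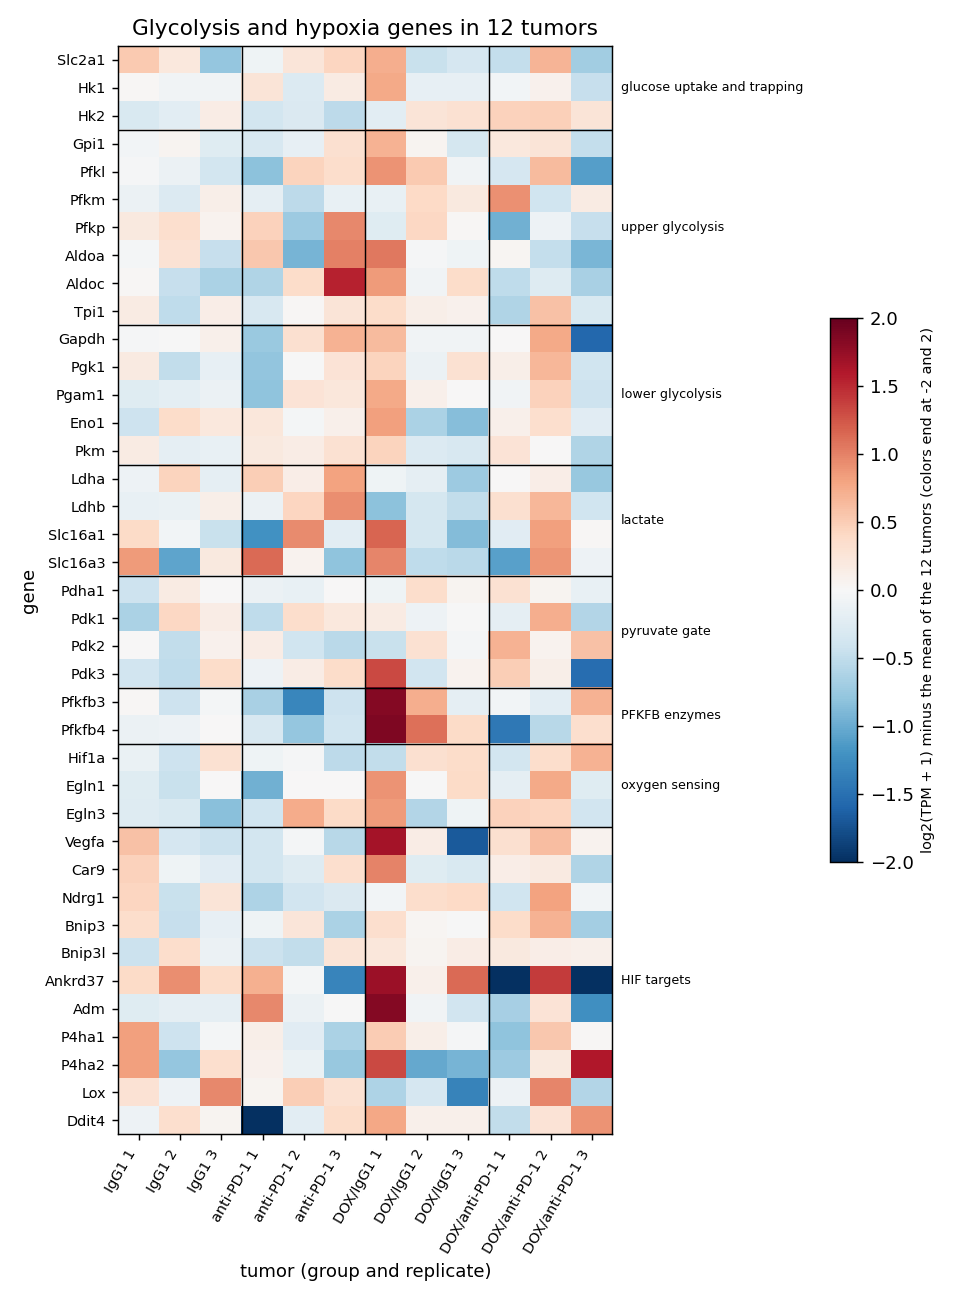
Each row is 1 of the 39 genes, grouped by role, and each column is 1 tumor; color is log2(TPM + 1) minus the mean of the 12 tumors, red above and blue below, ending at -2 and 2. The column of DOX/IgG1 replicate 1 is red in most rows, with Ldhb and Lox among the exceptions.

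Salivary gland markers stood apart in the whole DOX/IgG1 group. The 5 markers summed to 6.41, 16.8 and 5.93 TPM in the IgG1 tumors, 22.4, 5.4 and 22.5 in the anti-PD-1 tumors, 60.1, 98 and 114 in the DOX/IgG1 tumors and 19.7, 16 and 23.3 in the DOX/anti-PD-1 tumors. Amy1 was the most abundant over the 12 tumors, and it was above 0 in all tumors. Bpifa2, a secreted protein of salivary glands, was at 14.4, 21.3 and 53.7 TPM in the DOX/IgG1 tumors and at 0 in the other 9. Of the 4 markers tested in DOX/IgG1 against IgG1, limma called 2, and 3 were higher in every DOX/IgG1 tumor. Prol1 was at 0 in DOX/IgG1 replicate 1 and Dcpp1 in DOX/IgG1 replicate 2. The part of salivary tissue in the results on DOX/IgG1 was not tested.

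The first comparison asked what doxorubicin with control antibody was associated with. The 3 tumors of each group did not overlap for 4 members. Pfkfb4, which activates glycolysis through phosphofructokinase, and the glycolytic mutase Pgam1 were higher with doxorubicin, 2 of 39 against 9.31% of all genes tested. Ldhb, a lactate dehydrogenase subunit, and the collagen crosslinking enzyme Lox were lower, 2 of 39 against 4.64%. None of the 39 members was called in DOX/IgG1 against IgG1 by limma, where a call means an adjusted p below 0.1 over all genes tested and an absolute log2 fold change above 1. Over all 13874 genes tested, 5 were called, or 0.036%. Unadjusted p was below 0.05 for 3 members (Lox, Pfkfb4 and Aldoc) and for 1073 of all genes. Of the 5 epithelial markers, 4 had a negative log2 fold change here and 1, Krt19, a positive one. Epcam was lower in every DOX/IgG1 tumor. Krt19 was at 847, 347 and 601 TPM in IgG1 replicates 1 to 3 and at 302, 1261 and 1801 TPM in DOX/IgG1 replicates 1 to 3. By limma 0 of these 5 were called, and 1 had an unadjusted p below 0.05. The part of epithelial cells in the results was not tested. The members' median log2 fold change was 0.19, with 31 higher and 8 lower, beside 0.12 over all genes, of which 60.6% were higher. Leaving out DOX/IgG1 replicate 1 brought the members' median to 0.02 (22 higher and 17 lower) while that of all genes was 0.15, and the number of genes called went from 5 to 122, with 0 members among them. Leaving out IgG1 replicate 1 instead gave a median of 0.26 for members (33 higher and 6 lower) beside 0.02 for all genes. That tumor held the lowest level of 24.6% of all genes tested over the 12 tumors and of 2 members. The number called was 0 without any 1 of the IgG1 tumors or without DOX/IgG1 replicate 3, and 2 without DOX/IgG1 replicate 2.

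With anti-PD-1 in both groups, the hexokinase Hk2, the glycolytic activator Pfkfb3 and the vessel growth factor Vegfa were higher in every doxorubicin tumor (3 of 39 against 11.1% of all genes). The lactate dehydrogenase subunit Ldha was lower in every one (1 of 39 against 3.84%). Here limma again called 0 members. In DOX/anti-PD-1 against anti-PD-1 it called 0 of 13736 genes, or 0%. At an unadjusted p below 0.05 there were 4 members (Pfkfb3, Hk2, Vegfa and Pdk2) and 1185 of all genes. By role, 8 HIF targets were higher and 3 lower (median 0.29), and 2 oxygen sensing genes higher and 1 lower (0.42). In upper glycolysis 2 were higher and 5 lower (-0.26), and among lactate genes 1 and 3 (-0.23). Lower glycolysis had 2 and 3, glucose uptake and trapping 1 and 2, the pyruvate gate 2 and 2, and the PFKFB enzymes 1 and 1. The roles were not tested as sets. The median of all 39 members was -0.03, with 19 higher and 20 lower, beside 0.11 over all genes. It was 0.20 without DOX/anti-PD-1 replicate 3 (27 higher and 12 lower), 0.05 without DOX/anti-PD-1 replicate 1, 0.04 without anti-PD-1 replicate 3, -0.14 without DOX/anti-PD-1 replicate 2 (15 higher and 24 lower) and -0.09 without anti-PD-1 replicate 1. Leaving out single tumors gave between 0 and 4 genes called, the 4 without DOX/anti-PD-1 replicate 2, and 1 without each of anti-PD-1 replicate 1, DOX/anti-PD-1 replicate 1 and DOX/anti-PD-1 replicate 3.

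Averaged over both antibodies, with 6 tumors on each side, doxorubicin went with 13 calls among 14735 genes, or 0.0882%, and with 0 calls among members. Unadjusted p was below 0.05 for 4 members (Pfkfb3, Ldha, Hk2 and Lox) and for 1751 of all genes. No member separated the 6 tumors with doxorubicin from the 6 without, while 0.597% of all genes were higher and 0.122% lower in every tumor with doxorubicin. The median was 0.14 for members and 0.12 for all genes. Leaving out DOX/IgG1 replicate 1 gave -0.03 and 0.13, and 301 genes called with 0 members among them. The members' median was also negative, -0.02, without DOX/anti-PD-1 replicate 2, and it was 0.22 without DOX/anti-PD-1 replicate 3 and 0.07 without anti-PD-1 replicate 1. Leaving out any other tumor gave between 0 and 20 calls: 0 without IgG1 replicate 2 or anti-PD-1 replicate 1, 2 without DOX/IgG1 replicate 3, 3 without anti-PD-1 replicate 2, 5, 20 and 7 without replicates 1, 2 and 3 of DOX/anti-PD-1. Scaling by median of ratios moved the median of all genes by over 0.1 in each comparison of tumors with doxorubicin to tumors without. It was then 0.01 here, with 0.01 for members. In DOX/IgG1 against IgG1 it was 0.01, with 0.06 for members and 24 of them higher. In DOX/anti-PD-1 against anti-PD-1 it was -0.01, with -0.14 for members and 16 of them higher.

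**Figure D3:**
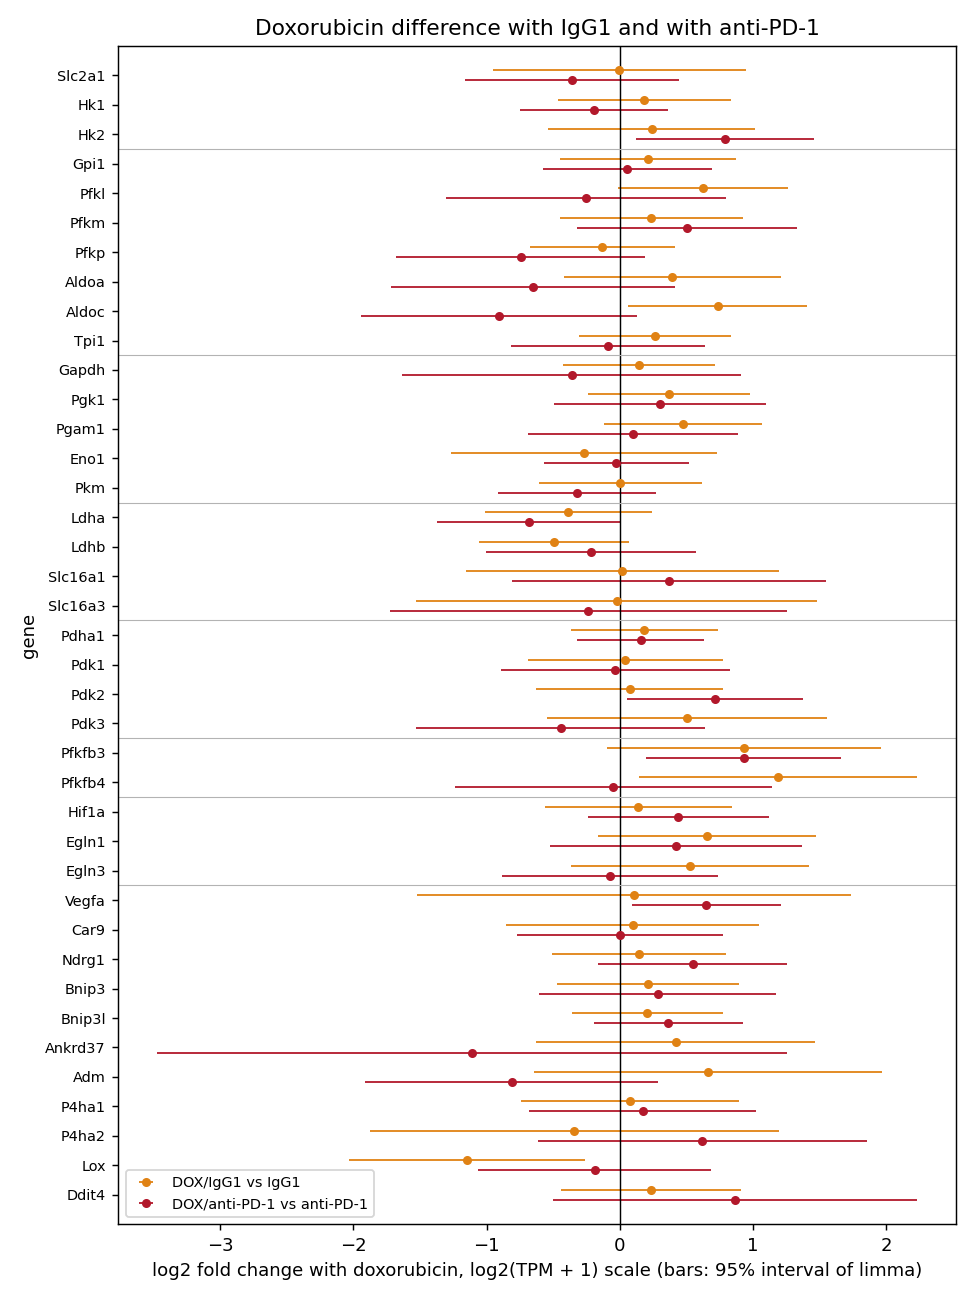
Points show the log2 fold change of each of the 39 genes with doxorubicin, on the log2(TPM + 1) scale, in IgG1-treated mice (orange) and in anti-PD-1-treated mice (red); bars are 95% intervals from limma. Most intervals span 0, and Pfkfb3 stands at 0.93 in both comparisons.

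The antibody itself was compared within each chemotherapy arm, and these comparisons share groups with those above. Without doxorubicin, limma called 0 members and 0 of 13692 genes (0%) in anti-PD-1 against IgG1, and unadjusted p was below 0.05 for 1 member (Pfkfb3) and 630 genes. Adm was the only member higher in all 3 anti-PD-1 tumors (1 of 39 against 3.64%), and Pfkfb3 and Pfkfb4 were lower in all 3 (2 of 39 against 6.24%). By the sign of the log2 fold change, Adm was also the only HIF target that was higher. The other 10 of the 11 were lower (median of the 11 -0.26), while 47.2% of all genes were higher. In upper glycolysis 6 members were higher and 1 lower, and in lower glycolysis 4 and 1. The roles were not tested as sets. The median was -0.01 for members and -0.03 for all genes, and the members' median turned to 0.03 under median of ratios scaling and lay between -0.13 and 0.05 without single tumors, the lowest without IgG1 replicate 2 and the highest without IgG1 replicate 1. Without IgG1 replicate 1 there were 4 calls, without IgG1 replicate 2 there were 2, and without anti-PD-1 replicate 2 there was 1.

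With doxorubicin in both groups, limma called 0 members and 0 of 13946 genes (0%) when DOX/anti-PD-1 was set beside DOX/IgG1, with unadjusted p below 0.05 for 3 members (Aldoc, Pfkfb4 and Ldhb) and 655 genes. Members that lay higher with anti-PD-1 in every tumor numbered 0, against 4.27% of all genes. Aldoc and Pfkfb4 were lower in all 3, or 2 of 39 against 5.95%. The median was -0.11 for members, with 14 higher and 25 lower, beside -0.04 for all genes, of which 46.3% were higher. It was 0.03 for members without DOX/IgG1 replicate 1 and 0.01 without DOX/anti-PD-1 replicate 3. It was -0.38 without DOX/anti-PD-1 replicate 2 (10 higher and 29 lower), -0.31 without DOX/IgG1 replicate 3 (9 higher and 30 lower) and -0.22 without DOX/IgG1 replicate 2. Without DOX/IgG1 replicate 1, 4 genes were called, and 1 without DOX/anti-PD-1 replicate 3.

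Whether the doxorubicin difference depended on the antibody was tested as an interaction over the 12 tumors. The test called 1 of 14735 genes, or 0.00679%, and 0 members, and unadjusted p was below 0.05 for 1 member (Aldoc) and 694 genes. The single call was lost without each tumor other than DOX/IgG1 replicate 1 and DOX/anti-PD-1 replicate 3. For Aldoc the interaction was -1.65 on the log2 scale (SE 0.60, limma adjusted p = 0.993). The median interaction was -0.10 over members and -0.01 over all genes. The members' median turned to 0.02 without DOX/IgG1 replicate 1 (23 higher and 16 lower) and to 0.06 without DOX/anti-PD-1 replicate 3. It was -0.34 without DOX/anti-PD-1 replicate 2, -0.32 and -0.22 without DOX/IgG1 replicates 3 and 2, -0.22 without IgG1 replicate 1, and -0.27 and -0.17 without anti-PD-1 replicates 1 and 2.

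Promoter sequence is shown for members whose groups did not overlap with doxorubicin in either antibody arm. RefSeq windows of build GRCm38.p6 were matched to 36 of the 39 members, with 51 windows in all. The letters ACGTG and GCGTG, the core bound by HIF dimers, were searched on both strands in the 250 bases before each start, where CACGTG holds the first motif on each strand and counts as 2 matches. At least 1 match was present in 34 of 36 members and in 82.4% of their 51 windows, beside 38.6% of all 32851 windows of the same length. Member windows also had a higher GC content, with a median of 61.6% against 52.4%. A match of these letters is a description of the window and no evidence of binding.

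Of the members named in those comparisons, 5 had a window free of exons of the gene in the GENCODE annotation. Ldha and Vegfa each have another window that is not shown. They are given 5′ to 3′ on the strand of the gene, with matches in capitals. The Hk2 window (minus strand, chr6:82774455-82774704) held 2 matches, the Pgam1 window (plus strand, chr19:41911621-41911870) 3, the Ldha window (plus strand, chr7:46845554-46845803) 5, the Ldhb window (minus strand, chr6:142507958-142508207) 1, and the Vegfa window (minus strand, chr17:46032378-46032627) 0. The Ldha window not shown (chr7:46846832-46847081) held 1 match. The Vegfa window not shown (chr17:46025164-46025413), which overlaps exons of the gene, held 2 matches. The start was found in the transcripts for the Hk2 and Ldhb windows and for the Ldha window not shown, and it was not found for the shown Pgam1, Ldha and Vegfa windows or for the other Vegfa window.
Hk2: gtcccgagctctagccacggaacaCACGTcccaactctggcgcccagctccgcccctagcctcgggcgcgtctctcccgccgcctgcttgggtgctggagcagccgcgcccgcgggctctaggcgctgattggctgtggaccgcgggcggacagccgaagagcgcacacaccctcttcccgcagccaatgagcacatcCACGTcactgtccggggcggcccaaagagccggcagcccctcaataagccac
Pgam1: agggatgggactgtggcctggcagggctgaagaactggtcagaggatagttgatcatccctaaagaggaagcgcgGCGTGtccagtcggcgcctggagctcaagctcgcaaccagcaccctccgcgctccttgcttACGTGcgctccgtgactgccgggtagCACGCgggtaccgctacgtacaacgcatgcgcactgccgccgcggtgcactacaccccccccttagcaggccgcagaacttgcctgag
Ldha: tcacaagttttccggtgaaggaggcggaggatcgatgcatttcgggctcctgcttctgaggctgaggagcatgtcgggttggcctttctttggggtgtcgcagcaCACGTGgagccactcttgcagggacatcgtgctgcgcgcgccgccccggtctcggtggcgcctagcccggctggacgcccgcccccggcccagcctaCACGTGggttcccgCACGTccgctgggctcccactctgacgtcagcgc
Ldhb: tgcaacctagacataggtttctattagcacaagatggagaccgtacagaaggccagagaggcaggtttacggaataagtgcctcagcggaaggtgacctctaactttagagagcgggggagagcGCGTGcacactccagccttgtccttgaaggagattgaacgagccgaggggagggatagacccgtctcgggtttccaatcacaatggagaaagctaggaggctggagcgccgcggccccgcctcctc
Vegfa: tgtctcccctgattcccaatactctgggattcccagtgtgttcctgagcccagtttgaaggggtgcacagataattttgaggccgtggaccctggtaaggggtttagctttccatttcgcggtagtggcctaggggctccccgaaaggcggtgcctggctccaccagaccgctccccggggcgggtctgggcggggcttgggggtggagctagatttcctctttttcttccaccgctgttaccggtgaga

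Glucose entry and trapping come first in the pathway. In each sentence of values below, tumors stand in the order of replicates 1, 2 and 3. Slc2a1, the GLUT1 transporter, was at 98.7, 79.9 and 39.9 TPM in the IgG1 tumors, 64.5, 81.5 and 92.7 in the anti-PD-1 tumors, 115, 50.4 and 54 in the DOX/IgG1 tumors and 49, 111 and 42.1 in the DOX/anti-PD-1 tumors. All 4 groups overlapped, and the highest levels were in DOX/IgG1 replicate 1 and DOX/anti-PD-1 replicate 2. Doxorubicin averaged over antibodies gave a log2 fold change of -0.18 (SE 0.30, limma adjusted p = 0.849), and between -0.39 and -0.05 without single tumors.

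Hk2, the hexokinase that binds mitochondria and is raised in many tumors, was at 8.23, 8.76 and 11.6 TPM in the IgG1 tumors, 7.79, 8.32 and 6.85 in the anti-PD-1 tumors, 8.81, 12.5 and 13.1 in the DOX/IgG1 tumors and 14.5, 14.8 and 12.5 in the DOX/anti-PD-1 tumors. The DOX/anti-PD-1 tumors all lay above the anti-PD-1 tumors, and 5 of the 6 tumors with doxorubicin lay above all 6 without, the exception being DOX/IgG1 replicate 1. Between the anti-PD-1 groups this was a log2 fold change of 0.79 (SE 0.30, limma adjusted p = 0.531). The exact permutation p was 0.1, two-sided, which is the smallest that 3 against 3 tumors can give. Averaged over antibodies it was a log2 fold change of 0.51 (SE 0.21, limma adjusted p = 0.361), with an exact permutation p of 0.00433. Exact permutation p-values of group differences, here and below, are not adjusted over genes. Without DOX/IgG1 replicate 1 the averaged value was 0.60 (adjusted p = 0.198), where the adjusted p ran from 0.198 to 0.532 over all alternatives. Its within-group SD of 0.206 on the log2 scale was the smallest of the 39 members and stood at the percentile 3.53 of all genes tested, while the median over members was 0.515 and over all genes 0.478. Hk1, the housekeeping hexokinase, ranged over 91.4 to 215 TPM and supplied most hexokinase RNA. Its share of Hk1, Hk2 and Hk3 together was between 86% and 95.7%, and the share of Hk2 was 4.83, 7.29 and 4.57% in the anti-PD-1 tumors and 10.5, 9.79 and 11.8% in the DOX/anti-PD-1 tumors. With IgG1 the groups overlapped, at 5.73, 6.61 and 8.58% in the IgG1 tumors and 3.92, 9.89 and 10.1% in the DOX/IgG1 tumors, and replicate 1 of the latter had the lowest share of the 12.

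The 7 members of upper glycolysis carry glucose 6-phosphate to the triose phosphates. Aldoa, the aldolase of muscle and many other tissues, ranged over 307 to 1227 TPM and was highest in DOX/IgG1 replicate 1. Aldoc, the aldolase best known from brain, was at 259, 185 and 165 TPM in the IgG1 tumors, 168, 331 and 746 in the anti-PD-1 tumors, 459, 243 and 330.3 in the DOX/IgG1 tumors and 179.5, 214 and 162 in the DOX/anti-PD-1 tumors. The DOX/anti-PD-1 tumors all lay below the DOX/IgG1 tumors, and anti-PD-1 replicate 3 stood above every other tumor. The difference of DOX/anti-PD-1 from DOX/IgG1 was a log2 fold change of -0.85 (SE 0.28, limma adjusted p = 0.988), or -0.62 without DOX/IgG1 replicate 1. Against their own antibody controls the 2 doxorubicin groups had Aldoc values of 0.74 with IgG1 and -0.91 with anti-PD-1, and both of these comparisons had overlapping groups. Pfkl, Pfkm and Pfkp encode the liver, muscle and platelet subunits of phosphofructokinase, the committed step. Pfkl made up between 26.9% and 65.8% of their summed level, Pfkp between 29.6% and 67.2% and Pfkm between 3.79% and 17.4%. Pfkm was highest in DOX/anti-PD-1 replicate 1, which also had the highest skeletal muscle marker sum, 718 TPM against 8.07 to 451.5 TPM in the other tumors; all 7 muscle markers were above 0 there, 6 of them were highest there, and Acta1 was the most abundant. The part of muscle in the Pfkm level was not tested. Gpi1 ranged over 177 to 403 TPM and Tpi1 over 72.9 to 168 TPM, and neither separated any of the groups compared.

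Lower glycolysis, from glyceraldehyde 3-phosphate to pyruvate, held 5 members. Pgam1, phosphoglycerate mutase, was at 48.5, 49.9 and 52.9 TPM in the IgG1 tumors, 32.4, 69.4 and 67.2 in the anti-PD-1 tumors, 97.4, 61.9 and 57.9 in the DOX/IgG1 tumors and 54.8, 79.5 and 42.8 in the DOX/anti-PD-1 tumors. The 3 DOX/IgG1 tumors lay above the 3 IgG1 tumors, with replicate 1 far above the other 2, and the anti-PD-1 groups overlapped. DOX/IgG1 against IgG1 gave a log2 fold change of 0.47 (SE 0.26, limma adjusted p = 0.715), and without DOX/IgG1 replicate 1 it was 0.24. Gapdh ranged over 56.8 to 289 TPM, from DOX/anti-PD-1 replicate 3 to DOX/anti-PD-1 replicate 2, so that its lowest and highest levels were in 1 group. Eno1 ranged over 280.4 to 896 TPM, Pkm over 226 to 469 TPM and Pgk1 over 38 to 106 TPM. Gapdh, Pgk1, Pgam1, Eno1, Pkm, Aldoa, Tpi1 and Ldha have many processed pseudogenes, whose reads could be split with the parent gene, so their levels carry that uncertainty.

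Lactate is made from pyruvate by lactate dehydrogenase and leaves or enters cells through monocarboxylate transporters. Ldha, the subunit that favors lactate formation, was at 476, 694 and 451 TPM in the IgG1 tumors, 722, 561 and 892 in the anti-PD-1 tumors, 481, 449 and 309.6 in the DOX/IgG1 tumors and 516, 559 and 303 in the DOX/anti-PD-1 tumors. The DOX/anti-PD-1 tumors lay below the anti-PD-1 tumors, with replicates 2 of both groups almost level, and the DOX/IgG1 and IgG1 tumors overlapped. Between the anti-PD-1 groups this was a log2 fold change of -0.68 (SE 0.31, limma adjusted p = 0.582), and it was -0.41 without DOX/anti-PD-1 replicate 3. Averaged over antibodies it was a log2 fold change of -0.53 (SE 0.21, limma adjusted p = 0.354), with an exact permutation p of 0.0433. Without DOX/IgG1 replicate 1 that was -0.59 (adjusted p = 0.228), within a range of 0.228 to 0.549 for the adjusted p over all alternatives.

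Ldhb, the subunit typical of heart, was at 42.6, 43.1 and 51.3 TPM in the IgG1 tumors, 43.3, 64.2 and 91.1 in the anti-PD-1 tumors, 26.5, 36.8 and 33.5 in the DOX/IgG1 tumors and 59.1, 75.8 and 35.7 in the DOX/anti-PD-1 tumors. The 3 DOX/IgG1 tumors and DOX/anti-PD-1 replicate 3 held the 4 lowest levels, all below the IgG1 tumors, while anti-PD-1 replicate 3 held the highest. DOX/IgG1 against IgG1 gave a log2 fold change of -0.50 (SE 0.25, limma adjusted p = 0.691), or -0.36 without DOX/IgG1 replicate 1. Ldhb made up 10.3, 11.9 and 10.6% of Ldha and Ldhb together in the DOX/anti-PD-1 tumors, above the 5.22, 7.58 and 9.76% in the DOX/IgG1 tumors. The transporter Slc16a1 ranged over 7.21 to 41.5 TPM and Slc16a3 over 0.42 to 5.6 TPM, and all groups compared overlapped for both.

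At the gate from pyruvate to the mitochondrion, pyruvate dehydrogenase (Pdha1 is its catalytic alpha subunit) is switched off by the kinases Pdk1 to Pdk4. Pdha1 ranged over 121 to 206 TPM with a within-group SD of 0.221. Pdk1, the HIF-responsive kinase, was at 17.7, 37.3 and 30.8 TPM in the IgG1 tumors, 19.3, 35.9 and 32.4 in the anti-PD-1 tumors, 31.3, 25.8 and 27.6 in the DOX/IgG1 tumors and 24.4, 46.6 and 18.3 in the DOX/anti-PD-1 tumors. All groups overlapped, and averaging over antibodies gave a log2 fold change of 0.01 (SE 0.26, limma adjusted p = 0.997), which turned to -0.11 under median of ratios scaling. Pdk2, the widely expressed kinase, was at 27.9, 19.5 and 29.8 TPM in the IgG1 tumors, 30.9, 21 and 18.7 in the anti-PD-1 tumors, 20.2, 34.8 and 27.1 in the DOX/IgG1 tumors and 45.8, 29.3 and 42.3 in the DOX/anti-PD-1 tumors. The 2 highest tumors belonged to the DOX/anti-PD-1 group, whose replicate 2 lay below anti-PD-1 replicate 1. Averaged over antibodies this was a log2 fold change of 0.40 (SE 0.21, limma adjusted p = 0.491), with an exact permutation p of 0.106. Pdk3 ranged over 7.18 to 57.6 TPM, lowest in DOX/anti-PD-1 replicate 3 and highest in DOX/IgG1 replicate 1.

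The PFKFB enzymes make and break fructose 2,6-bisphosphate, the strongest activator of phosphofructokinase, and both members are HIF targets. Pfkfb3, located on chromosome 2 from 11471433 to 11554077 (minus strand, GENCODE vM21 on GRCm38), was at 74.9, 55.3 and 72.1 TPM in the IgG1 tumors, 46.8, 29.2 and 55.1 in the anti-PD-1 tumors, 267, 122 and 64.8 in the DOX/IgG1 tumors and 71.2, 63.3 and 119.8 in the DOX/anti-PD-1 tumors. The 3 DOX/anti-PD-1 tumors lay above the anti-PD-1 tumors, and the anti-PD-1 tumors lay below the IgG1 tumors, the nearest pair being almost level. With IgG1 the doxorubicin groups overlapped, since DOX/IgG1 replicate 3 fell within the IgG1 range. DOX/anti-PD-1 against anti-PD-1 gave a log2 fold change of 0.93 (SE 0.32, limma adjusted p = 0.504), and anti-PD-1 against IgG1 gave a log2 fold change of -0.65 (SE 0.28, limma adjusted p = 0.996). The latter was -0.39 without anti-PD-1 replicate 2. Pfkfb3 had the smallest p of the 39 members for doxorubicin averaged over antibodies, a log2 fold change of 0.93 (SE 0.30, limma adjusted p = 0.274), with an exact permutation p of 0.0303. Without DOX/IgG1 replicate 1 this was 0.67 (adjusted p = 0.209), and the adjusted p ran from 0.209 to 0.472 over all alternatives.

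Pfkfb4, on chromosome 9 from 108991778 to 109032228 (plus strand), was at 3.35, 3.39 and 3.75 TPM in the IgG1 tumors, 2.79, 1.78 and 2.58 in the anti-PD-1 tumors, 16.3, 9.16 and 5.15 in the DOX/IgG1 tumors and 0.76, 2.22 and 5 in the DOX/anti-PD-1 tumors. The 3 DOX/IgG1 tumors were the 3 highest of the 12, and the DOX/anti-PD-1 tumors spread from the lowest of all to just under them. DOX/IgG1 against IgG1 gave a log2 fold change of 1.19 (SE 0.46, limma adjusted p = 0.597), and without DOX/IgG1 replicate 1 this was 0.81. The difference of DOX/anti-PD-1 from DOX/IgG1 was a log2 fold change of -1.66 (SE 0.60, limma adjusted p = 0.988), or -1.29 without DOX/IgG1 replicate 1. For Pfkfb4, anti-PD-1 against IgG1 gave a log2 fold change of -0.42 (SE 0.38, limma adjusted p = 0.996). Each exact permutation p was 0.1. The interaction of doxorubicin and antibody was -1.24 (limma adjusted p = 0.993). Pfkfb4 supplied 5.11, 4.94 and 4.39% of the 4 PFKFB genes' summed level in the DOX/IgG1 tumors and 3.42, 2.97 and 3.13% in the IgG1 tumors. With anti-PD-1 the mean share was lower with doxorubicin and the groups overlapped, at 0.65, 2.01 and 2.64% in the DOX/anti-PD-1 tumors and 2.92, 2.59 and 2.91% in the anti-PD-1 tumors. Pfkfb3 was the most abundant of the 4 in every tumor but anti-PD-1 replicate 2, where Pfkfb2 was.

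**Figure D4:**
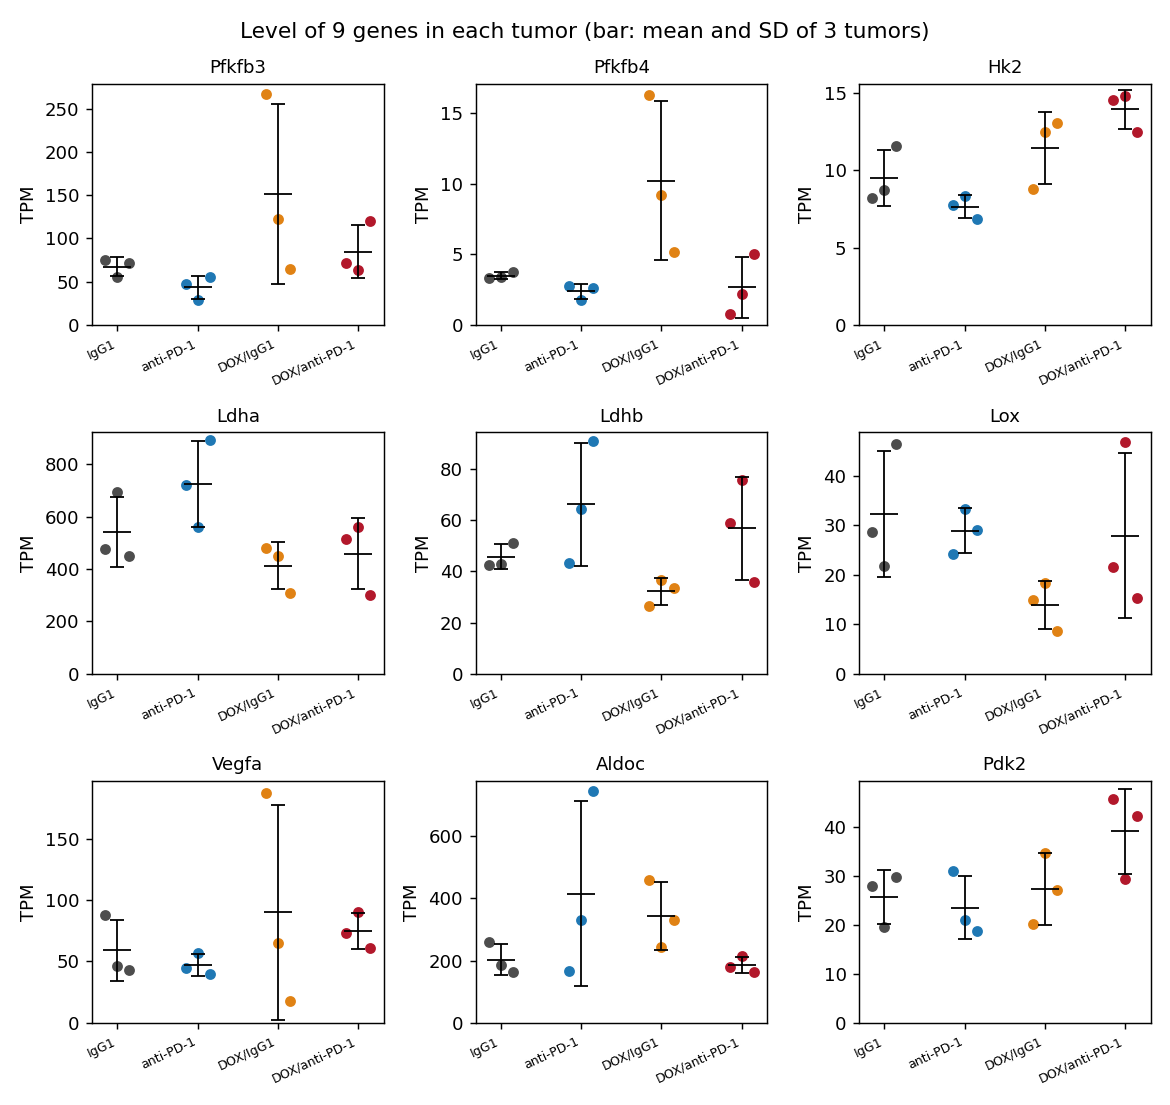
Level in TPM of 9 genes in each of the 12 tumors; points are tumors in the order of replicates 1 to 3, and bars are the mean and SD of 3 tumors. Vertical axes start at 0. DOX/IgG1 replicate 1 is the highest point for Pfkfb3, Pfkfb4 and Vegfa and the lowest for Ldhb.

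Oxygen sensing was represented by Hif1a and by the prolyl hydroxylases Egln1 and Egln3. Hif1a, which is regulated largely as a protein, was at 83.7, 68.6 and 113 TPM in the IgG1 tumors, 86, 89.9 and 63.3 in the anti-PD-1 tumors, 64.4, 114 and 119 in the DOX/IgG1 tumors and 70.4, 117 and 149 in the DOX/anti-PD-1 tumors. The groups overlapped, and DOX/IgG1 replicate 1, so high for other members, had the lowest Hif1a level but 1. Averaged over antibodies, doxorubicin gave a log2 fold change of 0.29 (SE 0.23, limma adjusted p = 0.65), and between 0.17 and 0.44 without single tumors. Egln1, the main oxygen sensor of the family, was at 8.72, 7.45 and 10.6 TPM in the IgG1 tumors, 4.9, 10.6 and 10.6 in the anti-PD-1 tumors, 20.4, 10.5 and 14.1 in the DOX/IgG1 tumors and 9.18, 18.4 and 8.79 in the DOX/anti-PD-1 tumors. Its 3 highest tumors had received doxorubicin, while the other 3 tumors with doxorubicin lay among those without. The averaged contrast was a log2 fold change of 0.54 (SE 0.28, limma adjusted p = 0.481), with an exact permutation p of 0.0628, and the contrast was 0.42 without DOX/IgG1 replicate 1. Egln3 ranged over 16.3 to 54.6 TPM, and no groups separated.

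Among HIF targets, Vegfa, the growth factor of vessels, was at 87.7, 46.2 and 42.9 TPM in the IgG1 tumors, 44.8, 57 and 39.5 in the anti-PD-1 tumors, 187, 64.9 and 17.5 in the DOX/IgG1 tumors and 72.7, 90.2 and 61 in the DOX/anti-PD-1 tumors. The DOX/anti-PD-1 tumors lay above the anti-PD-1 tumors, while the DOX/IgG1 group held both the highest and the lowest tumor of the 12. DOX/anti-PD-1 against anti-PD-1 gave a log2 fold change of 0.65 (SE 0.25, limma adjusted p = 0.533), with the adjusted p between 0.499 and 0.837 over all alternatives. The averaged contrast was a log2 fold change of 0.38 (SE 0.42, limma adjusted p = 0.762), and it was -0.03 without DOX/IgG1 replicate 1, with the sign turned, and 0.81 without DOX/IgG1 replicate 3. Endothelial markers (Pecam1, the most abundant, with Cdh5, Kdr, Tek and Emcn) summed to 101, 106 and 123 TPM in the IgG1 tumors, 83.7, 83.1 and 87.1 in the anti-PD-1 tumors, 108, 118 and 67.8 in the DOX/IgG1 tumors and 91, 132 and 51.8 in the DOX/anti-PD-1 tumors, and limma called 0 of the 5 in the pairwise comparisons or the average, with 1 at an unadjusted p below 0.05 in DOX/IgG1 against IgG1 and 0 in the others.

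Car9, the carbonic anhydrase used as a stain for hypoxia, was at 22.1, 14.9 and 13.4 TPM in the IgG1 tumors, 12.1, 13.1 and 20.2 in the anti-PD-1 tumors, 32.4, 13.2 and 12.6 in the DOX/IgG1 tumors and 17.5, 18.1 and 10.1 in the DOX/anti-PD-1 tumors. All groups overlapped, and DOX/IgG1 replicate 1 was the highest. The averaged contrast was a log2 fold change of 0.05 (SE 0.28, limma adjusted p = 0.966), which turned sign under median of ratios scaling, to -0.07. Adm, which encodes the vessel-relaxing peptide adrenomedullin, was at 5.83, 6.16 and 6.11 TPM in the IgG1 tumors, 14.7, 6.42 and 7.01 in the anti-PD-1 tumors, 27.9, 6.72 and 5.17 in the DOX/IgG1 tumors and 4.09, 8.78 and 2.47 in the DOX/anti-PD-1 tumors. The anti-PD-1 tumors lay above the IgG1 tumors by little except in replicate 1, and anti-PD-1 against IgG1 gave a log2 fold change of 0.47 (SE 0.38, limma adjusted p = 0.996), or 0.13 (adjusted p = 0.991) without that tumor. Its adjusted p was between 0.838 and 1 over all alternatives.

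Lox, the lysyl oxidase that crosslinks collagen, was at 28.7, 21.7 and 46.4 TPM in the IgG1 tumors, 24.2, 33.4 and 29.1 in the anti-PD-1 tumors, 14.9, 18.3 and 8.63 in the DOX/IgG1 tumors and 21.6, 46.8 and 15.2 in the DOX/anti-PD-1 tumors. The 3 DOX/IgG1 tumors lay below the IgG1 tumors, and DOX/anti-PD-1 replicate 2 held the highest level of the 12. DOX/IgG1 against IgG1 gave a log2 fold change of -1.15 (SE 0.39, limma adjusted p = 0.55), the smallest p of the members in that comparison. Without DOX/IgG1 replicate 1 this was -1.22 (adjusted p = 0.283), and the adjusted p ran from 0.283 to 0.892 over all alternatives. Averaged over antibodies it was a log2 fold change of -0.67 (SE 0.29, limma adjusted p = 0.391). Fibroblast markers, of which Col1a1 was the most abundant and none of 5 was at 0 in DOX/IgG1 replicate 1, summed to 779, 835 and 1299 TPM in the IgG1 tumors, 628, 549 and 442 in the anti-PD-1 tumors, 353, 1435 and 975 in the DOX/IgG1 tumors and 746, 999 and 1143 in the DOX/anti-PD-1 tumors. They were lowest in DOX/IgG1 replicate 1 but highest in DOX/IgG1 replicate 2, where Lox was at 18.3 TPM and Dcn supplied 619 TPM of the sum. The markers went different ways: Col1a1 was lower in every DOX/IgG1 tumor than in the IgG1 tumors, as Lox was, at 149, 339 and 274 TPM beside 432, 527 and 745 TPM, while 3 of the 5 had a positive log2 fold change. By limma 0 of the 5 were called in that comparison, and 1 had an unadjusted p below 0.05. The part of fibroblasts in the Lox level was not tested.

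Ankrd37, an ankyrin repeat gene induced by HIF, was at 7.46, 11.3 and 7.37 TPM in the IgG1 tumors, 9.59, 5.28 and 1.58 in the anti-PD-1 tumors, 20.1, 5.95 and 13.2 in the DOX/IgG1 tumors and 0, 15.9 and 0 in the DOX/anti-PD-1 tumors. Of the DOX/anti-PD-1 tumors, replicates 1 and 3 were listed at 0 and replicate 2 was surpassed only by DOX/IgG1 replicate 1. The gene had the widest scatter within groups of the 39 members. P4ha1 and P4ha2, which hydroxylate proline in collagen, ranged over 14.2 to 46.1 TPM and 5.78 to 40.9 TPM. Ndrg1 ranged over 46.3 to 126 TPM, and Ddit4, an inhibitor of mTORC1, over 4.87 to 45.5 TPM. The mitophagy receptors Bnip3 and Bnip3l ranged over 15.8 to 42.7 TPM and 103 to 186 TPM. None of these 6 genes separated any of the groups compared.

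The HIF targets were next compared with each other across tumors. The level of Vegfa was correlated with that of 13 other oxygen sensing and HIF target members over the 12 tumors, and 12 of the 13 coefficients were positive, with a median Pearson r of 0.353 beside -0.0521 for all genes tested. The largest r was that of Car9, 0.666 (permutation p = 0.0213, or 0.277 after Benjamini-Hochberg adjustment over the 13 relations), with a Spearman rho of 0.51 (permutation p = 0.0917, adjusted 0.397). For Bnip3, r was 0.492 (permutation p = 0.102, adjusted 0.356) and rho 0.699 (permutation p = 0.0139, adjusted 0.181). No relation had an adjusted p below 0.1 by either measure. Without DOX/IgG1 replicates 1 and 3, the 2 tumors farthest from the median of Vegfa, r was 0.343 for Car9 and 0.753 for Bnip3, and 11 of the 13 coefficients were positive. On deviations from group means r was 0.718 for Car9 and 0.452 for Bnip3. Within the 6 tumors with doxorubicin r was 0.736 for Car9 and 0.367 for Bnip3 (exact permutation p = 0.111 and 0.442), and within the 6 without it was 0.465 and 0.827 (exact permutation p = 0.382 and 0.0222). Hif1a had an r of -0.281 with Vegfa (permutation p = 0.383, adjusted 0.58) and a rho of -0.0909 (permutation p = 0.78, adjusted 0.922). Its r turned to 0.301 without the same 2 tumors, was -0.470 on deviations from group means, and was -0.556 within the tumors with doxorubicin and 0.143 within those without (exact permutation p = 0.285 and 0.769).

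**Figure D5:**
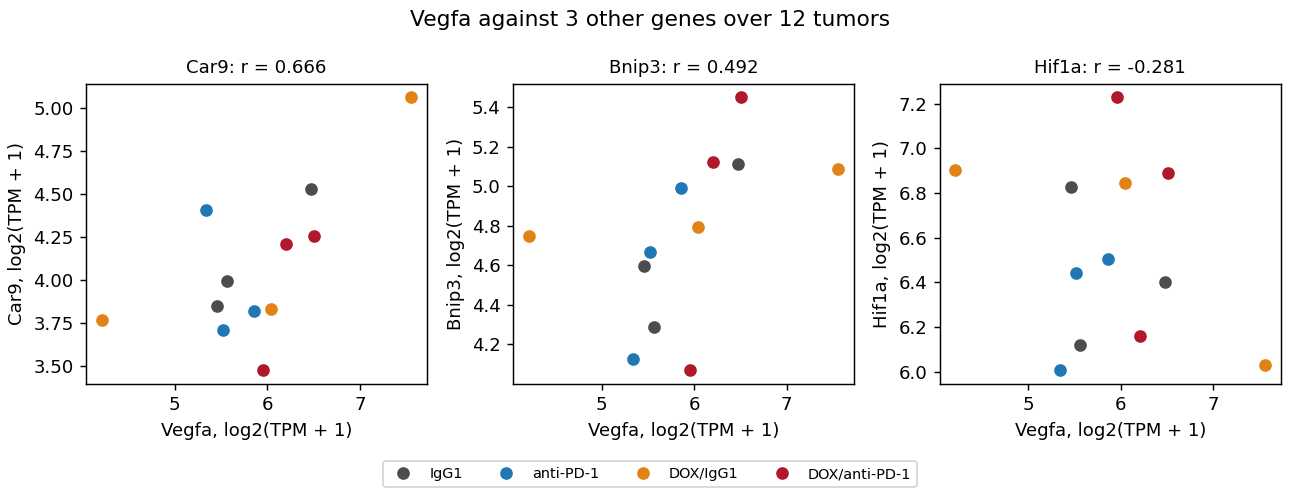
Level of Car9, Bnip3 and Hif1a against that of Vegfa, both as log2(TPM + 1), with 1 point per tumor colored by group. The tumor at the far right is DOX/IgG1 replicate 1 and that at the far left DOX/IgG1 replicate 3; r is 0.666, 0.492 and -0.281.

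Other genes of the pathway, 72 in all, were read from the same fits. They include further isozymes, gluconeogenic enzymes, pyruvate carriers, HIF regulators and hypoxia targets. None was called by limma in any of the 6 comparisons. Of the 63 tested in DOX/IgG1 against IgG1, 6 had an unadjusted p below 0.05, or 9.52% beside 7.73% of all genes. In every doxorubicin tumor 6 were higher and 4 lower, against 9.31% and 4.64% of all genes, and the median was 0.11 beside 0.12. In DOX/anti-PD-1 against anti-PD-1, 7 of 63 had an unadjusted p below 0.05, or 11.1% beside 8.63% of all genes. In every doxorubicin tumor 13 were higher and 4 lower, against 11.1% and 3.84% of all genes, and the median was 0.27 beside 0.11. Averaged over antibodies, 11 of 64 had an unadjusted p below 0.05, or 17.2% beside 11.9% of all genes. Of these 64, 46 were higher and 18 lower, while 63.3% of all genes were higher, and the median was 0.18 beside 0.12. In the interaction 4 of 64 had an unadjusted p below 0.05, or 6.25% beside 4.71% of all genes.

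Vhl, which marks hydroxylated HIF-1 alpha for destruction, was at 12.6, 11.2 and 8.88 TPM in the IgG1 tumors, 15.4, 20.9 and 23.6 in the anti-PD-1 tumors, 25.7, 28.5 and 36.6 in the DOX/IgG1 tumors and 32.3, 22.3 and 44.8 in the DOX/anti-PD-1 tumors. The DOX/IgG1 tumors all lay above the IgG1 tumors, the anti-PD-1 tumors also lay above them, and only DOX/anti-PD-1 replicate 2 of the tumors with doxorubicin fell below a tumor without. DOX/IgG1 against IgG1 gave a log2 fold change of 1.39 (SE 0.30, limma adjusted p = 0.453), anti-PD-1 against IgG1 0.81, and the average over antibodies a log2 fold change of 1.03 (SE 0.21, limma adjusted p = 0.139), with an exact permutation p of 0.00433. In the same comparison of DOX/IgG1 with IgG1, the neuronal enolase Eno2 had a log2 fold change of 1.08 and Hk3, a hexokinase of myeloid cells, one of -1.06. Hk3 was at 7.07, 2.97 and 3.21 TPM in the IgG1 tumors, 1.64, 1.05 and 1.35 in the anti-PD-1 tumors, 0.77, 1.14 and 2.92 in the DOX/IgG1 tumors and 1.27, 2.2 and 2.31 in the DOX/anti-PD-1 tumors, and it was also lower in every anti-PD-1 tumor than in the IgG1 tumors (-1.14). In the latter comparison 4 of 5 macrophage markers had a negative log2 fold change and 2, Cd14 and Cd68, were lower in every anti-PD-1 tumor, with 0 called by limma and 2 at an unadjusted p below 0.05. All 5 had a positive log2 fold change in DOX/IgG1 against IgG1, where Hk3 had a negative one. None of the 5 was at 0 in any tumor, and the part of macrophages in the Hk3 level was not tested.

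Pck1, an enzyme of gluconeogenesis that is abundant in fat, was at 5.81, 14.3 and 22.3 TPM in the IgG1 tumors, 8.05, 3.03 and 4.11 in the anti-PD-1 tumors, 7.5, 107 and 8.79 in the DOX/IgG1 tumors and 84.3, 9.84 and 37 in the DOX/anti-PD-1 tumors. Pdk4, the kinase induced by fatty acids, was at 2.63, 1.71 and 5.9 TPM in the IgG1 tumors, 1.38, 0.88 and 1.6 in the anti-PD-1 tumors, 1.28, 8.49 and 1.71 in the DOX/IgG1 tumors and 20, 2.92 and 12.4 in the DOX/anti-PD-1 tumors. Angptl4, a lipase inhibitor that responds to fasting and to low oxygen, was at 8.6, 23.9 and 22.5 TPM in the IgG1 tumors, 4.39, 8.79 and 10.9 in the anti-PD-1 tumors, 11, 44 and 9.26 in the DOX/IgG1 tumors and 25.1, 32.4 and 27.9 in the DOX/anti-PD-1 tumors. For all 3 genes the DOX/anti-PD-1 tumors lay above the anti-PD-1 tumors, with log2 fold changes of 2.52, 2.19 and 1.77 and limma adjusted p of 0.479, 0.479 and 0.429. Adipocyte markers had positive log2 fold changes in the same comparison. All 6 were above 0 in every tumor but IgG1 replicate 1, where Lep and Retn were at 0. Adipoq was the most abundant over the 12 tumors. Fabp4 exceeded it in anti-PD-1 replicate 1, DOX/IgG1 replicate 1 and DOX/anti-PD-1 replicates 1 and 3. Their sum was 36.1, 187 and 119.6 TPM in the IgG1 tumors, 51, 44.1 and 81.2 in the anti-PD-1 tumors, 94.2, 448 and 65.8 in the DOX/IgG1 tumors and 509, 119.8 and 122 in the DOX/anti-PD-1 tumors, and 4 of the 6 were higher in every DOX/anti-PD-1 tumor than in the anti-PD-1 tumors, against 11.1% of all genes. By limma 0 of the 6 were called, and 5 had an unadjusted p below 0.05. All 5 fibroblast markers were higher in the same comparison, 3 of them in every tumor, with 0 called by limma and 4 at an unadjusted p below 0.05. The paper, with DESeq2, lists Pdk4 among the genes raised in this comparison. In its tissue staining, PDK4 protein was higher with DOX/anti-PD-1 in the epithelial compartment only. The part of fat cells and fibroblasts in these results was not tested.

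In anti-PD-1 against IgG1, 8 of 61 pathway genes tested had an unadjusted p below 0.05, or 13.1% beside 4.6% of all genes. In every anti-PD-1 tumor 3 were higher and 5 lower, against 3.64% and 6.24% of all genes, and the median was -0.05 beside -0.03. Stc2, a secreted glycoprotein, was at 82.5, 94.6 and 84.1 TPM in the IgG1 tumors, 80.0, 37.7 and 29.2 in the anti-PD-1 tumors, 28.2, 415 and 525 in the DOX/IgG1 tumors and 72.3, 72.6 and 100.3 in the DOX/anti-PD-1 tumors, where the anti-PD-1 tumors lay below the IgG1 tumors (-0.95) and DOX/IgG1 replicates 2 and 3 far above all others. Between the doxorubicin groups, 3 of 62 had an unadjusted p below 0.05, or 4.84% beside 4.7% of all genes. In every DOX/anti-PD-1 tumor 2 were higher and 2 lower, against 4.27% and 5.95% of all genes, and the median was 0.06 beside -0.04. Car12, a second membrane carbonic anhydrase, was at 189, 369.6 and 290.4 TPM in the IgG1 tumors, 304, 121 and 444 in the anti-PD-1 tumors, 385, 305 and 247 in the DOX/IgG1 tumors and 116, 234 and 128 in the DOX/anti-PD-1 tumors. All 3 DOX/anti-PD-1 tumors lay below the DOX/IgG1 tumors, at a log2 fold change of -1.01 (SE 0.31, limma adjusted p = 0.988). In the same comparison Dlat, a subunit of the pyruvate dehydrogenase complex, had a value of 0.64 and Pgm1 one of -0.59.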

How the data were processed

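Total RNA of 12 snap-frozen tumors was sequenced. The authors used STAR for alignment to mm10 and RSEM for gene levels (versions not given), and they deposited log2(TPM + 1) with decimal commas. Values alone cannot tell TPM from FPKM. Depth per tumor is unknown, since no counts are given.

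Values were read as log2 of TPM with a pseudocount of 1, and all fold changes are differences on the log2(TPM + 1) scale. Genes that reached 1 TPM in 3 or more tumors of a comparison were fitted with limma 3.58.1 (R 4.3.3, eBayes with trend). Each of the 4 pairwise comparisons used its 6 tumors, and the doxorubicin average and the interaction used all 12. A call needed a Benjamini-Hochberg adjusted p under 0.1 together with a log2 fold change beyond 1 in either direction. Single members and pathway genes were also tested by exact permutation, two-sided, which cannot go below 0.1 for 3 against 3 tumors. These exact p-values are not adjusted over genes. For doxorubicin averaged, all 12 tumors were permuted without regard to antibody, while the limma contrast beside it was balanced over antibody. Correlations used 100000 permutations.

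The members and lists were chosen with earlier results of these data known. All 39 members are accounted for. Values in every tumor are given for up to 4 non-overlapping members with the largest fold change per pairwise comparison, the 6 with the smallest p for doxorubicin averaged, and Slc2a1, Hk2, Ldha, Hif1a, Vegfa, Car9 and Pdk1. From the pathway list, every gene called and up to 3 non-overlapping genes with the largest fold change per comparison are named, with 1 left out. Ankrd37, Pfkm and Bpifa2 were singled out after their values were seen.

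Alternatives were a pseudocount of 0.1, no minimum, a minimum of 5 TPM, median of ratios scaling, eBayes without trend, a replicate block, all 12 tumors in 1 fit, no limit on the fold change, and each tumor left out in turn. Gene positions are from GENCODE vM21 and promoter windows from RefSeq.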

Additional observations from a re-analysis of the deposited data

How the results depend on the processing

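No member was called under any alternative, with or without the limit on the fold change. The members' medians moved with single tumors: without any 1 tumor they were between 0.02 and 0.28 for DOX/IgG1 against IgG1, -0.13 and 0.05 for anti-PD-1 against IgG1, -0.14 and 0.20 for doxorubicin where both groups had anti-PD-1, -0.38 and 0.03 for the antibody where both had doxorubicin, -0.03 and 0.22 for the average and -0.34 and 0.06 for the interaction. Of 366 member fold changes under alternatives, for 24 results, 354 kept their sign and 12 turned. For doxorubicin averaged over both antibodies, Car9 turned to -0.067 under median of ratios scaling and was between -0.16 and 0.18 without single tumors, negative in 5 of 12 (-0.02 for 3 of these and -0.01 for 1). Pdk1 turned to -0.11 under that scaling and was between -0.18 and 0.15 without single tumors, with further negative values of -0.15, -0.13 and -0.03. Vegfa was between -0.026, without DOX/IgG1 replicate 1, and 0.81 without single tumors. The cause was not tested. A minimum of 5 TPM left Pfkfb4 untested in anti-PD-1 against IgG1.

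The number of genes called among all tested moved more. In DOX/IgG1 against IgG1 it was 13 without trend, 2 with the replicate block, and between 0 and 122 without single tumors. In DOX/anti-PD-1 against anti-PD-1 it was 3 without trend and 0 to 4 without single tumors. In anti-PD-1 against IgG1 it was 1 without trend and 0 to 4 without single tumors. For the 2 groups with doxorubicin it was 3 under median of ratios scaling, 3 without trend, 2 with all 12 tumors in 1 fit, and 0 to 4 without single tumors. For doxorubicin averaged it was 6 with a pseudocount of 0.1, 7 with a minimum of 5 TPM, and 0 to 301 without single tumors. For the interaction it was 0 with a pseudocount of 0.1, 3 with no minimum, 0 with a minimum of 5 TPM, 0 under median of ratios scaling, 3 without trend, 0 with the replicate block, and 0 to 1 without single tumors. The cause was not tested.

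The labels do not say whether replicate numbers pair tumors across groups. The correlations between deviations of tumors with the same number were between -0.0963 and 0.134. Such values cannot show whether tumors were matched, and the block stands only as an alternative. With 3 tumors a group, no exact test between 2 groups can pass 0.05. Depth is unknown, so it cannot be said which low values it limits.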

Other observations

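Promoter matches were counted by role. In upper glycolysis 5 of 7 members with a window held at least 1 match of ACGTG or GCGTG, and in every other role all members with a window did, 8 of 8 for the HIF targets. In 13 of the 51 member windows there were 3 or more matches, while 6.58% of all windows held that many.

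Proliferation markers, of which Top2a was the most abundant, summed to 237, 372.1 and 327.3 TPM in the IgG1 tumors, 357.6, 449.6 and 332.5 in the anti-PD-1 tumors, 300.8, 83.24 and 199.5 in the DOX/IgG1 tumors and 450.7, 373.1 and 166 in the DOX/anti-PD-1 tumors.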
